A study of Mus musculus with 18 samples.

Results

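The 38 genes described here encode the folding and secretory machinery of the endoplasmic reticulum (ER), and they were followed in mouse liver under a high-fat diet (HFD) and under CMPF, a furan dicarboxylic acid that is found in blood and derives from fatty acids of the diet. Members were chosen by name: a member is a gene whose symbol is 1 of 38 listed symbols, measured by its brightest single-gene probe set over all arrays. All 38 were on the array and all 38 passed the filter on low signals, out of 18193 genes with a probe set of their own and 13221 genes that passed that filter and were tested. By role they comprise 8 lumenal chaperones and cochaperones, 6 disulfide and prolyl isomerases with their relatives, 2 lectin chaperones, 3 stress sensors and their transcription factor, 7 components of ER-associated degradation, 10 components of translocation, signal peptide cleavage and glycosylation, and 2 subunits of the COPII coat.

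Hepatocytes secrete most plasma proteins, so their ER is extensive. A secretory protein enters the ER through the Sec61 channel, loses its signal peptide, receives glycans and disulfide bonds, is folded by chaperones such as Hspa5 (BiP), and leaves in COPII vesicles; a protein that does not fold is passed to ER-associated degradation. The unfolded protein response, run by the sensors Ern1 (IRE1), Atf6 and Eif2ak3 (PERK), raises many of these genes when folding capacity falls short: Xbp1, spliced by Ern1, and cleaved Atf6 bind short promoter elements named ERSE, ERSE-II and UPRE.

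Livers came from wild-type CD1 mice in a prevention and a reversal model, each with 3 groups of 3 arrays, 18 arrays in all. In the prevention model, mice had 1 week of injections with vehicle or CMPF at 6 mg/kg per day and then 4 weeks on HFD with 60% of its energy from fat (the series text gives 4 to 5 weeks), beside a chow group labelled as control. In the reversal model, HFD was fed for 6 weeks, then vehicle or CMPF at that dose was injected for 2 weeks, again with chow controls. No group was given CMPF and kept on chow, and age and sex are not given in the sources used here. Nothing in the labels ties an array to an animal, so every p below measures the spread between arrays, which may be partly technical.

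Arrays 2 and 3 of the prevention CMPF group differed by an SD of 0.0911 over 2057 bright genes, whereas no other pair of arrays (152 pairs) fell under 0.271. Their mean was used as 1 sample, which leaves n = 2 for that group. The mean log2 signal of an array lay near 5.09 in prevention and near 5.25 in reversal, and levels were therefore compared only within a model. A 3' to 5' index (log2 signal of the 3' minus the 5' control probe sets of Gapdh and beta-actin) rises as RNA gets shorter. Its mean was 1.43 ± 0.512 (SD, n = 3) for prevention chow and 2.84 ± 0.303 (n = 3) in prevention HFD, with no overlap. It was 2.95 ± 0.285 (n = 2) in prevention CMPF, 3.15 ± 0.566 (n = 3) in reversal chow, 2.62 ± 0.969 (n = 3) in reversal HFD and 2.63 ± 0.957 (n = 3) in reversal CMPF. Reversal chow 2 stood apart, with a median correlation of 0.970 with the other arrays of its model. Hepatocyte markers were high on every array (log2 of the summed signal of 7 genes 16.7 to 17.0).

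Promoters are shown because 12 members hold letters there of the stress elements named above. Members were chosen as genes of this machinery, many of them raised by the response that uses these elements. Their shares are therefore a description and not a test. RefSeq promoters (build GRCm38.p6, 250 bases before to 50 bases after the start) were given for 31 of the 38 members, and Hyou1, Manf, Atf6, Derl1, Sec61a1, Spcs3 and Sec11c were not among them. The literal ERSE (CCAAT, then 9 bases of any kind, then CCACG, on either strand) lay in 9 of these 31 members (29%) and in 37 of all 27025 genes of the table (0.137%). ERSE-II (ATTGG, any 1 base, CCACG) lay in 2 members (6.45%) and 12 genes (0.0444%), and the UPRE core, TGACGTGG, in 1 member (3.23%) and 193 genes (0.714%). Any of these was present in 12 members (38.7%) and 239 genes (0.884%). The short element CCACG, which is part of ERSE and of ERSE-II and whose reverse complement lies within the UPRE core, was in 27 members (87.1%) and 35.5% of genes. The 5 promoters below belong to members that hold a site and whose HFD effect differed between the models; capitals mark the site, and each runs 5′ to 3′ on the gene's strand.
Hspa5 (GRCm38.p6, chr2:34771840-34772139, + strand), ERSE: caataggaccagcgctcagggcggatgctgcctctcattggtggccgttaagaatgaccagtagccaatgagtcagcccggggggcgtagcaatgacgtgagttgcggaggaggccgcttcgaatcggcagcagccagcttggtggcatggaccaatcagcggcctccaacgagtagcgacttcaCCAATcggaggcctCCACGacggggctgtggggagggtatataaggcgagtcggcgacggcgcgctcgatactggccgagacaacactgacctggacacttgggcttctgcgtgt
Pdia6 (GRCm38.p6, chr12:17266339-17266638, + strand), ERSE: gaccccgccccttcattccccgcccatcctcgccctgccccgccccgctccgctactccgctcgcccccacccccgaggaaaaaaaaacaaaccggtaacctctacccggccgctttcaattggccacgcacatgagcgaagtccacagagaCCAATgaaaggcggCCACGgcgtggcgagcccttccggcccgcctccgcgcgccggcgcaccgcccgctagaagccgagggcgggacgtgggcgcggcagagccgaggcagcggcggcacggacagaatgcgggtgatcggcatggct
Canx (GRCm38.p6, chr11:50325624-50325923, - strand), ERSE: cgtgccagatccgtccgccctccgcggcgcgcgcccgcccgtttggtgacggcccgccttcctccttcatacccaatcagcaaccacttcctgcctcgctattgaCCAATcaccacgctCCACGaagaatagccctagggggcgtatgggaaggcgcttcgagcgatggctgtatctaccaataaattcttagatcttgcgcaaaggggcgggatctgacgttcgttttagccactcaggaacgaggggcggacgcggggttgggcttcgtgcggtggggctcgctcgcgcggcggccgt
Dnajb11 (GRCm38.p6, chr16:22857595-22857894, + strand), ERSE-II: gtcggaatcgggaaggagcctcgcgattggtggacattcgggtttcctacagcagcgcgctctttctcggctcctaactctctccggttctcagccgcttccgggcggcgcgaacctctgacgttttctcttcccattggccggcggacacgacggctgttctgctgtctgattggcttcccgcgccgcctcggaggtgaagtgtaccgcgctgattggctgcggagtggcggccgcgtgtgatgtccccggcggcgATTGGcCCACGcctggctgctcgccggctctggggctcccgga
Sec24d (GRCm38.p6, chr3:123267246-123267545, + strand), UPRE core: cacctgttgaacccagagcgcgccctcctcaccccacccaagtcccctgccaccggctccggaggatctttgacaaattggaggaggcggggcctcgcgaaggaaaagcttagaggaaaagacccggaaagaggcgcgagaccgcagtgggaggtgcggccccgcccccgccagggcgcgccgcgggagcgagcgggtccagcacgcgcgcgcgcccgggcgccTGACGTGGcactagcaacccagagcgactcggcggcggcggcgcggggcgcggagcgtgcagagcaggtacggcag

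The ERSE of Hspa5 ran from 65 to 47 bases before the start, that of Pdia6 from 98 to 80 and that of Canx from 145 to 127. In Sec24d, whose product selects cargo for COPII vesicles, the UPRE core lay 26 to 19 bases before the start, and in Dnajb11, an Hspa5 cochaperone, ERSE-II lay past the start. The other members with ERSE were Calr, Creld2, Derl3, Dnajc3, Hsp90b1 (2 sites) and Syvn1, and Herpud1 had ERSE-II. These are matches of letters, not measured binding. The difference of the HFD effect between models is described below. It passed, always higher in reversal, in 5 of the 12 members with a site and in 14 of the 19 without one. Over all genes tested 8.84% passed on that side. Median log2 values were 1.21 with a site and 1.16 without one. The order of these medians was not the same in every comparison. With a site and without one they were -0.57 and -0.61 for HFD and 0.73 and 0.38 for CMPF in prevention, and 0.39 and 0.52 for HFD and 0.29 and 0.13 for CMPF in reversal. No gene passed for CMPF in prevention.

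**Figure D1:**
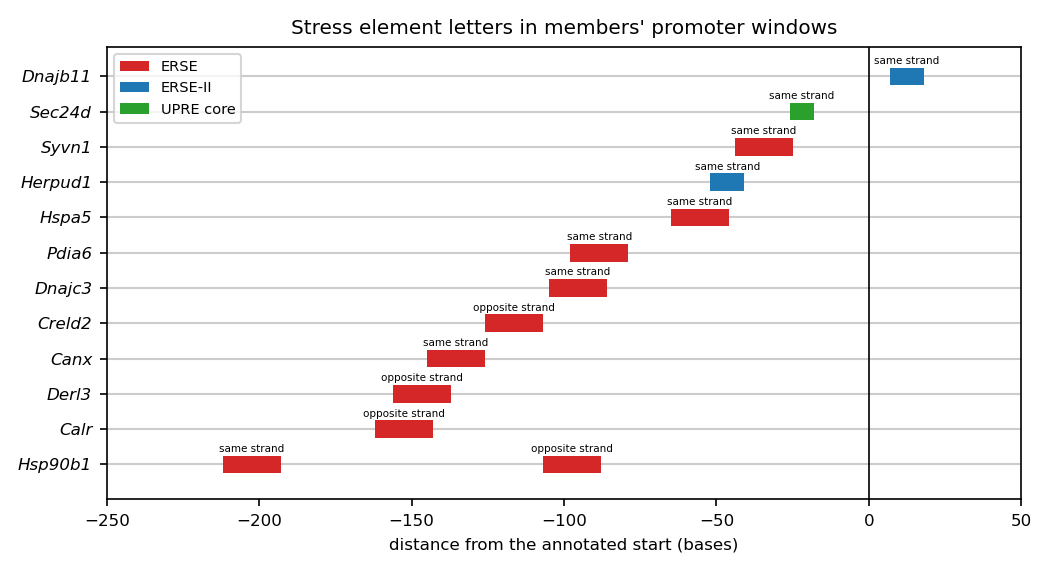
Positions of literal ERSE, ERSE-II and UPRE core matches in the promoters of the 12 members that hold one, in bases from the start (horizontal axis, 1 line per gene). Most sites lie within 162 bases before the start, Hsp90b1 holds 2, and the farthest begins 212 bases before it.

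Set against the chow mean of its model, the median member was low on all 3 prevention HFD arrays and high on all 6 reversal arrays of mice on HFD. The median deviation over the 38 members was -0.47, -0.64 and -0.59 (log2) on the prevention HFD arrays. On the prevention CMPF arrays it was -0.08, 0.13 and 0.05. Chow arrays themselves spread between -0.18 and 0.17 in prevention and between -0.26 and 0.31 in reversal, where the lowest was chow 2. The median deviation was 0.55, 0.64 and 0.21 on the reversal HFD arrays and 0.57, 0.86 and 0.60 on the reversal CMPF arrays, so that reversal HFD 3 lay within the range of its chow arrays and the other 5 lay above it. Over all genes tested the same median stayed between -0.043 and 0.040 on every array.

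**Figure D2:**
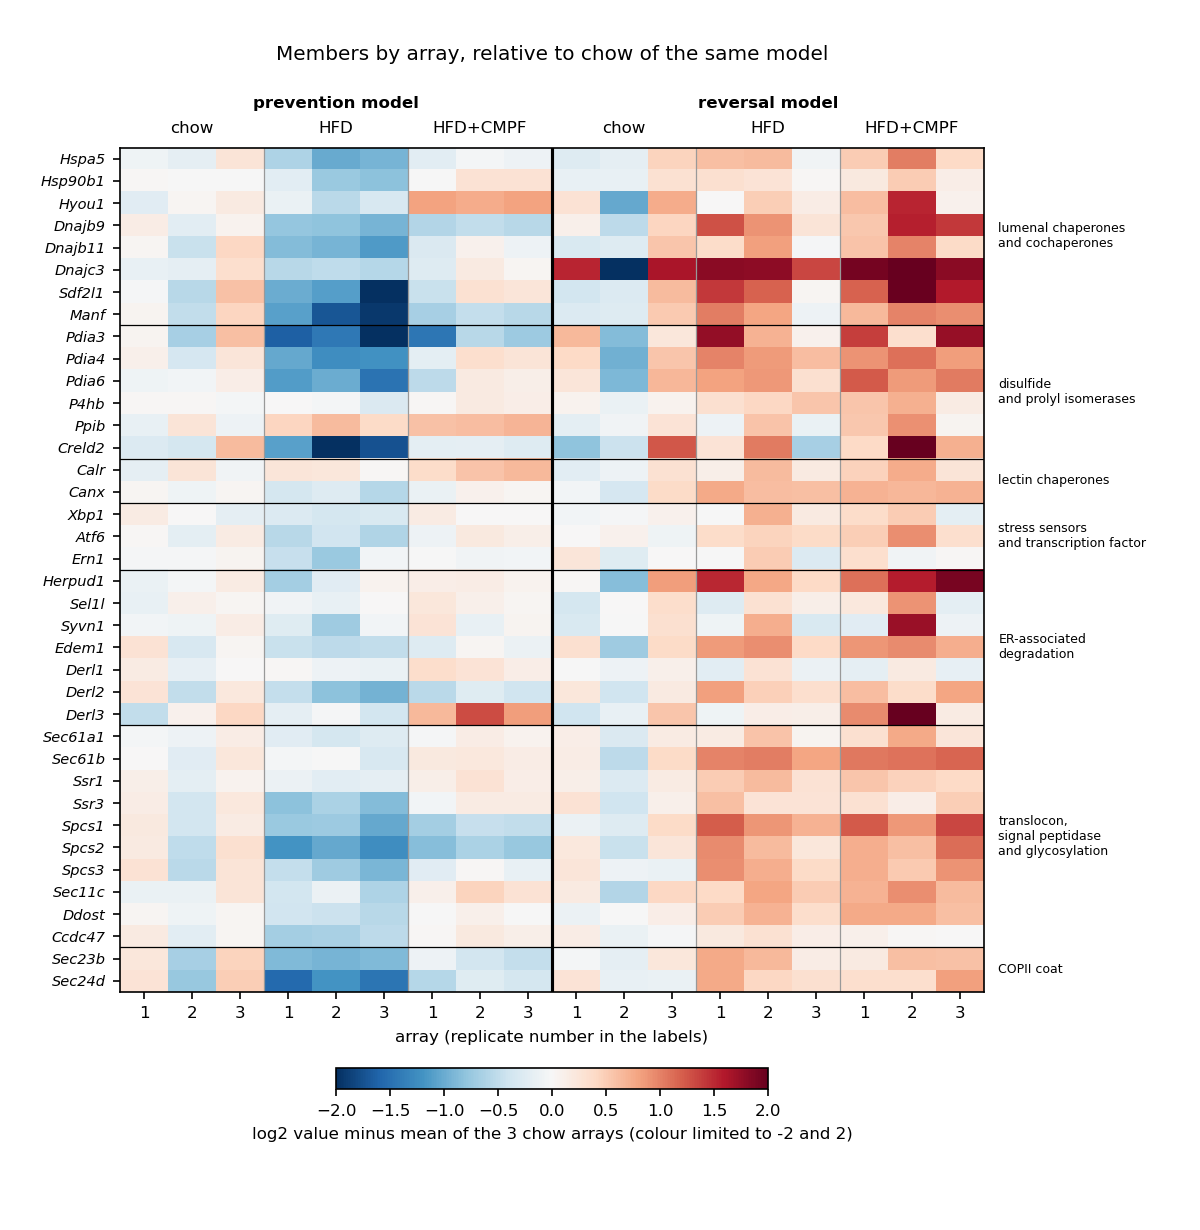
Deviation of the 38 members (1 line each, ordered by role) from the chow mean of their model on each of the 18 arrays (columns). Colour gives the log2 deviation, limited to -2 and 2; the medians over members run from -0.64 to -0.47 on the prevention HFD arrays and from 0.21 to 0.86 on the reversal arrays of mice on HFD.

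In the prevention model, members of several roles were lower with HFD than with chow: Hspa5 and Manf among the chaperones, Pdia4 and Pdia6 among the isomerases, Spcs1, Spcs2, Ssr3, Ddost and Ccdc47 at the translocon, and Sec23b and Sec24d of the COPII coat. These 11 of 38 members fell (limma, adjusted p under 0.05), where 3.83% of all genes tested fell, and 0 members rose, where 1.74% of all genes did. Values lay below 0 in 36 members (49.7% of all genes), with a median log2 difference of -0.53 against 0.0016 over all genes. The HFD arrays lay wholly below the chow arrays in 24 members (17.2% of all genes) and wholly above them in 1, Ppib (12% of all genes). The 3' to 5' index moved with this comparison, and with it as a covariate 0 members passed (0.129% of all genes), while the median was -0.58 and 36 members stayed below 0. Leaving out prevention chow 1, chow 3 or HFD 1 gave 0 members as well, leaving out HFD 2 or HFD 3 gave 1 and 2, and leaving out chow 2 gave 17. The share of all genes that passed moved too: it was 0.0908%, 0.0605% and 0.189% without chow 1, chow 3 and HFD 1, 0.862% and 1.83% without HFD 2 and HFD 3, and 12.3% without chow 2, against 5.57% with every array. Of 17 alternatives, the calls for Hspa5 and Sec23b held in 4 each and those of the other 9 members in 7 to 11.

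CMPF in the prevention model was tested against vehicle in mice that all went on to HFD. No member passed, and neither did any of the 13221 genes (0%), so these values are differences that did not pass the test. All 38 members had higher means with CMPF, against 53.2% of all genes, and the median difference was 0.47 against 0.017. In 33 members every CMPF array lay above every HFD array (16.9% of all genes), and 20 had an unadjusted p under 0.05 in that direction (5.86%). The index, 2.95 against 2.84, differed by less than its spread in these groups. The comparison shares its HFD arrays with that of HFD against chow, so the 2 are not independent: an array that reads low lowers one difference and raises the other.

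Set against chow, members of the prevention CMPF group lay on both sides: 20 were above 0 (50.4% of all genes) and 18 below, the median was 0.02, and 0 passed (0% of all genes). CMPF arrays lay wholly above chow in Calr, Derl3, Hyou1 and Ppib (4 members, 13.8% of all genes) and wholly below it in Dnajb9, Spcs1 and Spcs2 (3 members, 10.1%). The index was 2.95 in the CMPF group and 1.43 in this chow group.

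In the reversal model Sec61b, Ddost, Spcs1 and Canx rose with HFD. These were 4 of 38 members, where 2.17% of all genes rose, and 0 fell, where 0.28% did. Values lay above 0 in 37 members (54.9% of all genes), with a median of 0.49. Unadjusted p was under 0.05 in 15 members (15.6% of all genes), and HFD arrays lay wholly above chow in 12 (14.7%). Fits to the reversal arrays alone gave 0 members (0.287% of all genes), quantile normalisation over all arrays gave 1 (Sec61b) and cyclic loess 2. Without 1 array at a time, members numbered 0 without HFD 1 or HFD 2, 1 without chow 2, 2 without chow 1, 3 without HFD 3 and 4 without chow 3, while 0.749% to 4.36% of all genes passed. The 4 calls held in 7 to 12 of 17 alternatives, most often for Sec61b.

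CMPF against vehicle in the reversal model changed 0 members, where 5 of 13221 genes passed (0.0378%). Values lay above 0 in 31 members (47.5% of all genes) with a median of 0.19, unadjusted p was under 0.05 in 1 (1.91%), and the groups lay apart in 3: Derl3 and Sec61b higher (2 members, 3.79%) and Ccdc47 lower (1 member, 5.04%). Against chow, the reversal CMPF group had higher Ddost, Sec61b, Spcs1, Canx and Herpud1, which were 5 of 38 members where 1.61% of all genes rose. In that comparison 37 members lay above 0 (54.9% of all genes), the median was 0.66, and CMPF arrays lay wholly above chow in 21 members (10.8%). Leaving out 1 array gave 3 to 7 members, 3 of them without chow 1, chow 2 or any 1 of the CMPF arrays, while 0.552% to 2% of all genes passed. Fits to the reversal arrays alone gave 0 (0.446% of all genes).

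The HFD effect differed between the models in 22 of 38 members, all of them higher in reversal, where 8.84% of all genes were. This contrast, the HFD effect in reversal minus that in prevention, shares no array between its sides. It lay above 0 in 37 members (52.7% of all genes), with a median of 1.11. Ppib was the exception by its chosen probe set, though not by its other one (0.82 ± 0.239). Of the 22, 8 belong to translocation, signal peptidase and glycosylation, 5 are lumenal chaperones, 3 are isomerases, 2 each belong to degradation and to the COPII coat, and 1 each are a lectin chaperone (Canx) and a sensor (Atf6). With the index as a covariate 0 passed (0% of all genes) and the median was 1.05. Leaving out prevention chow 1 gave 0 members, and leaving out prevention chow 3 or reversal HFD 1 gave 2 each. It gave 6 without prevention HFD 3, 13 without reversal chow 2 and 15 to 23 without any other array. In the same fits 0% of all genes passed without prevention chow 1, 0.265% without prevention chow 3, 0.416% without reversal HFD 1, 1.97% without prevention HFD 3, 4.79% without reversal chow 2 and 5.62% to 18.2% without any other array. The 22 calls held in 6 (Ssr1) to 20 (Ddost and Spcs1) of 24 alternatives. The difference of the CMPF effects passed in 0 members (0% of all genes), with 33 below 0 (53.4%), a median of -0.35 and 5 members at an unadjusted p under 0.05 on that side (5.73%).

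**Figure D3:**
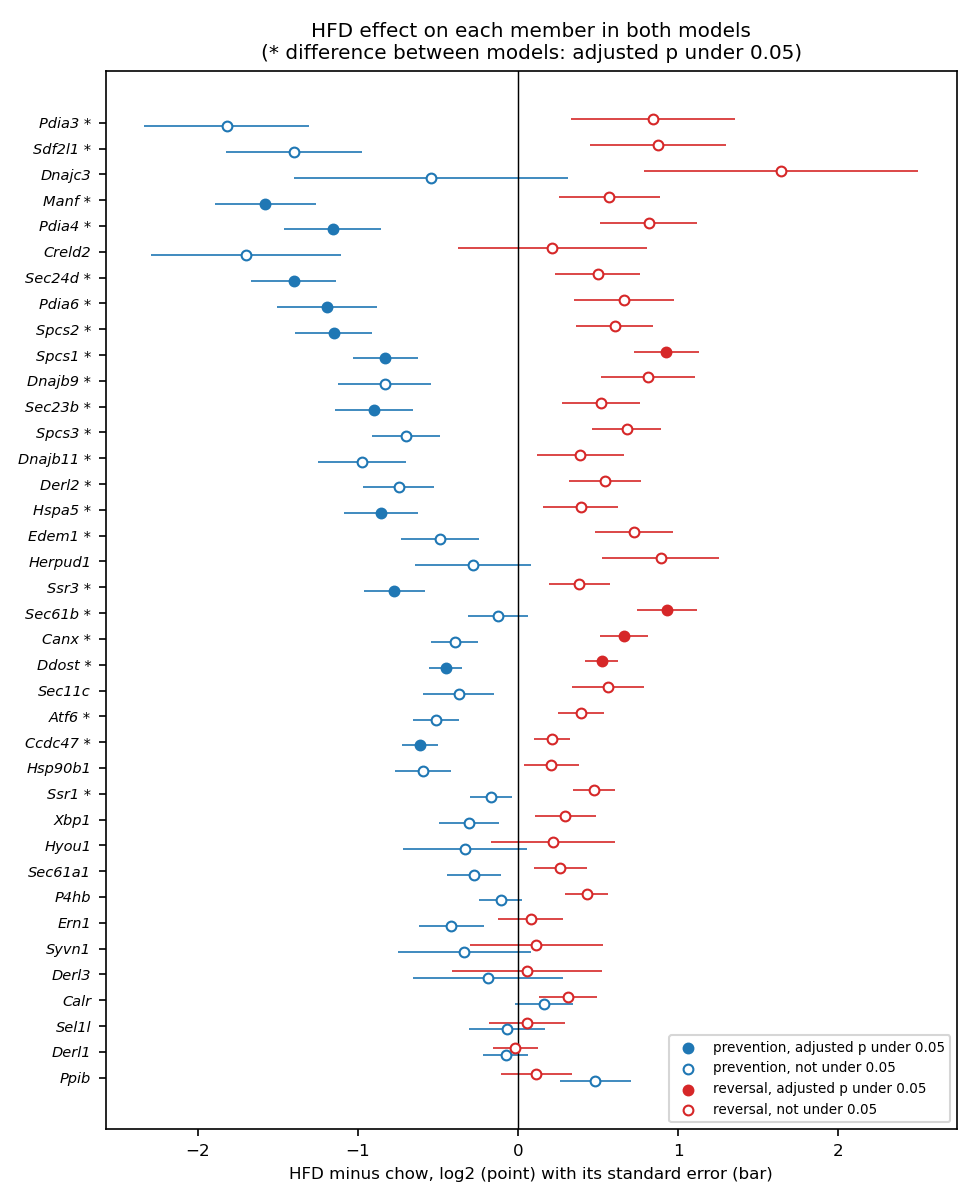
HFD effect (log2, HFD minus chow) of each of the 38 members in the prevention model and in the reversal model, with standard errors from limma, ordered by the difference between the models. Filled points passed in that model and a star marks a difference between models that passed. Values lie below 0 for 36 members in prevention and above 0 for 37 in reversal.

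Among the lumenal chaperones, Hspa5, the ER's abundant Hsp70 and the protein that holds the stress sensors inactive, gave log2 signals of 12.96, 12.86 and 13.30 on the prevention chow arrays, 12.43, 12.03 and 12.10 with HFD and 12.83, 12.998 and 12.94 with HFD and CMPF. All 3 HFD arrays lay below all chow and all CMPF arrays. Hspa5 fell with HFD by 0.86 ± 0.232 (limma log2 difference ± SE, adjusted p = 0.0472), 1.81-fold, a call that held in 4 of 17 alternatives. Its difference with CMPF was 0.71 ± 0.259 (adjusted p = 0.509). In reversal Hspa5 read 12.42, 12.48 and 13.11 with chow, 13.28, 13.30 and 12.60 with HFD and 13.18, 13.69 and 13.07 with CMPF, and the chow and HFD arrays overlapped (0.39, adjusted p = 0.325).

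Manf, a small secreted protein that is retained by Hspa5 and induced by ER stress, had the largest fall of the chaperones. Its log2 signal was 10.53, 9.98 and 10.91 in prevention chow, 9.39, 8.76 and 8.54 in HFD and 9.81, 10.01 and 9.93 in CMPF, with the HFD arrays lowest and the CMPF arrays above them, near chow 2. Manf fell by 1.58 ± 0.316 with HFD (adjusted p = 0.0179), 2.99-fold. In reversal the values were 9.51, 9.52 and 10.29 with chow, 10.80, 10.56 and 9.68 with HFD and 10.43, 10.78 and 10.70 with CMPF, and chow 3 overlapped the HFD arrays. The HFD effect on Manf was higher in reversal by 2.15 ± 0.447 (adjusted p = 0.0202).

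Dnajb9, a cochaperone that returns Ern1 to its inactive state, had means of 9.77 ± 0.187 in prevention chow, 8.94 ± 0.0794 in HFD and 9.22 ± 0.039 in CMPF. In reversal its means were 9.79 ± 0.487, 10.60 ± 0.512 and 10.95 ± 0.546. Its HFD effect differed between models by 1.64 ± 0.412 (adjusted p = 0.0295), although it passed in neither model alone, with adjusted p of 0.1 and 0.135. Sdf2l1, a partner of the Hspa5 cochaperones, and Dnajb11 also differed between models, by 2.28 ± 0.601 and 1.36 ± 0.386 (adjusted p = 0.0329 and 0.04).

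Hsp90b1 (GRP94), the ER's Hsp90, read 12.08, 12.04 and 12.04 in prevention chow, 11.84, 11.31 and 11.23 in HFD and 12.05, 12.35 and 12.34 in CMPF. The HFD arrays of Hsp90b1 were lowest, and CMPF 1 lay among the chow arrays. In the reversal model Hsp90b1 read 12.18, 12.18 and 12.64, 12.65, 12.61 and 12.36 and 12.53, 12.84 and 12.47 in the same order of groups, which overlapped. Its CMPF effect was 0.74 ± 0.195 in prevention (adjusted p = 0.344) and differed from that in reversal by -0.67 ± 0.261 (adjusted p = 0.568). Hyou1, the Hsp110 that exchanges nucleotide on Hspa5, did not pass in any comparison by its chosen probe set. On that probe set its CMPF arrays in prevention (10.21, 10.14 and 10.22) all lay above chow (9.18, 9.45 and 9.58). That difference was 0.79 ± 0.431, and the other Hyou1 probe set above the filter gave -0.03 ± 0.246. For the difference of the HFD effects the chosen and the other probe set gave 0.55 ± 0.545 and 1.06 ± 0.311. Dnajc3, an Hspa5 cochaperone, read 5.85 on reversal chow 2 and 10.52 and 10.63 on the other chow arrays of that model, and its reversal difference of 1.64 ± 0.858 did not pass (adjusted p = 0.265), with 0.52 to 0.82 in its 4 other probe sets. For the difference of the HFD effects Dnajc3 gave 2.19 ± 1.213 on the chosen probe set. The others gave 1.53 to 2.76, with SE of 0.275 to 0.414. In all, 2 of the 8 lumenal chaperones fell with HFD in prevention (3.83% of all genes). All 8 lay below 0 (49.7% of all genes), with a median of -0.84.

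The isomerases make and rearrange disulfide bonds. Pdia4 had log2 signals of 9.78, 9.34 and 9.91 in prevention chow, 8.65, 8.44 and 8.46 in HFD and 9.48, 10.003 and 9.93 in CMPF, and the HFD arrays lay apart from both. It fell by 1.16 ± 0.304 with HFD (adjusted p = 0.0417) and its CMPF difference was 1.21 ± 0.339 (adjusted p = 0.378). In reversal Pdia4 read 9.38, 8.01 and 9.54 with chow, where chow 2 was low, 9.97, 9.82 and 9.59 with HFD and 9.88, 10.08 and 9.81 with CMPF. The HFD effect was higher in reversal by 1.98 ± 0.429 (adjusted p = 0.023).

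Pdia6, which also ends Ern1 signalling, read 10.37, 10.40 and 10.59 in prevention chow, 9.33, 9.46 and 8.98 in HFD and 9.93, 10.63 and 10.56 in CMPF. It fell by 1.19 ± 0.311 with HFD (adjusted p = 0.041), and CMPF 2 and 3 lay near the highest chow array. Its reversal values were 9.82, 8.68 and 10.24, 10.38, 10.44 and 9.90 and 10.81, 10.43 and 10.63 for chow, HFD and CMPF, with chow 2 again lowest. Pdia6 and Pdia3, the isomerase that works with calnexin and calreticulin, were higher in reversal by 1.86 ± 0.439 and 2.66 ± 0.726 in the HFD effect (adjusted p = 0.0265 and 0.0355).

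By its chosen probe set, Ppib (cyclophilin B), a prolyl isomerase, was the member whose HFD difference was not higher in reversal than in prevention. With Calr it was 1 of 2 members above 0 for HFD in prevention. It read 10.85, 11.26 and 10.90 in prevention chow, 11.42, 11.64 and 11.39 in HFD and 11.58, 11.61 and 11.68 in CMPF, with chow lowest (HFD 0.48 ± 0.223, adjusted p = 0.197; CMPF against chow 0.61 ± 0.249, adjusted p = 0.461). Its second probe set gave -0.30 for the same HFD comparison, so the direction depends on the probe set. For the difference of the HFD effects the second probe set gave 0.82 ± 0.239, against -0.37 ± 0.315 on the chosen one. For CMPF against chow in prevention the second gave -0.08 ± 0.189. In reversal Ppib read 11.33, 11.46 and 11.80, 11.43, 12.10 and 11.40 and 12.07, 12.45 and 11.59, and CMPF against vehicle was 0.39 ± 0.223 (adjusted p = 1.00). P4hb, the disulfide isomerase that is also a subunit of prolyl 4-hydroxylase, and Creld2, an ER stress protein, passed in no comparison. In all 2 of the 6 fell with HFD in prevention (3.83% of all genes), and 5 lay below 0 (49.7%).

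Of the lectin chaperones, Canx (calnexin) holds glycoproteins at the ER membrane. Its log2 signal was 11.81, 11.69 and 11.82 in prevention chow, 11.42, 11.52 and 11.20 in HFD and 11.65, 11.86 and 11.82 in CMPF, and the HFD arrays were lowest without passing (adjusted p = 0.121). In reversal it was 11.25, 10.96 and 11.68 with chow, 12.05, 11.92 and 11.90 with HFD and 11.99, 11.96 and 11.99 with CMPF, and all arrays of mice on HFD lay above all chow arrays. Canx rose by 0.66 ± 0.148 with HFD (adjusted p = 0.0338) and by 0.68 ± 0.148 with HFD and CMPF, both against chow (adjusted p = 0.0314). For HFD in prevention the chosen probe set of Canx gave -0.40 ± 0.148, and its other probe sets gave -1.43 ± 0.223 and -0.42 ± 0.121. Calr (calreticulin), its lumenal relative, had means of 12.13 ± 0.235, 12.29 ± 0.117 and 12.61 ± 0.168 in the prevention chow, HFD and CMPF groups. Its reversal means were 12.33 ± 0.272, 12.64 ± 0.279 and 12.82 ± 0.238, and no Calr comparison passed.

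Sensors passed in neither model alone. Atf6, a membrane-bound transcription factor released by cleavage in the Golgi, read 7.83, 7.62 and 7.96 in prevention chow, 7.25, 7.42 and 7.20 in HFD and 7.71, 7.99 and 7.91 in CMPF. The HFD arrays were lowest, at a difference from chow of -0.51 ± 0.142 that missed the threshold of 0.05 (adjusted p = 0.0501). In reversal Atf6 read 7.42, 7.51 and 7.33 with chow, 7.78, 7.86 and 7.80 with HFD and 7.91, 8.34 and 7.75 with CMPF, with chow lowest. Its HFD effect was higher in reversal by 0.91 ± 0.201 (adjusted p = 0.0245).

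Xbp1, the transcription factor made active by Ern1's splicing, which was not measured here, read 12.21, 12.06 and 11.87 in prevention chow, 11.77, 11.70 and 11.74 in HFD and 12.22, 12.06 and 12.05 in CMPF. The HFD arrays lay below both other groups, with -0.31 ± 0.189 against chow (adjusted p = 0.337). Its 3 other probe sets gave -1.16, -1.68 and 0.10 for that comparison, and Xbp1 passed once its probe sets were averaged. In reversal Xbp1 read 11.74, 11.77 and 11.88, 11.78, 12.51 and 11.98 and 12.17, 12.30 and 11.60 in chow, HFD and CMPF.

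Ern1, the sensor kinase and nuclease, read 9.66, 9.65 and 9.73 in prevention chow, 9.23, 8.94 and 9.63 in HFD and 9.67, 9.61 and 9.62 in CMPF. HFD 3 lay just under the chow range and the other HFD arrays lower, at -0.42 ± 0.203 in all (adjusted p = 0.217). Its reversal values of 10.07, 9.59 and 9.84, 9.82, 10.34 and 9.57 and 10.16, 9.77 and 9.86 overlapped between groups, with an HFD difference of 0.08 ± 0.203 (adjusted p = 0.851) whose sign turned with the normalisation. Of the 3 sensors and transcription factors, 1, Atf6, passed for the difference between models by its chosen probe set (8.84% of all genes). For that difference Xbp1 gave 0.60 ± 0.267 on the chosen probe set. Its other probe sets gave 1.84 ± 0.311, 2.48 ± 0.331 and -0.02 ± 0.247. The chosen probe set of Ern1 gave 0.50 ± 0.287, and others above the filter gave -0.87 ± 0.314 and 0.01 ± 0.136.

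**Figure D4:**
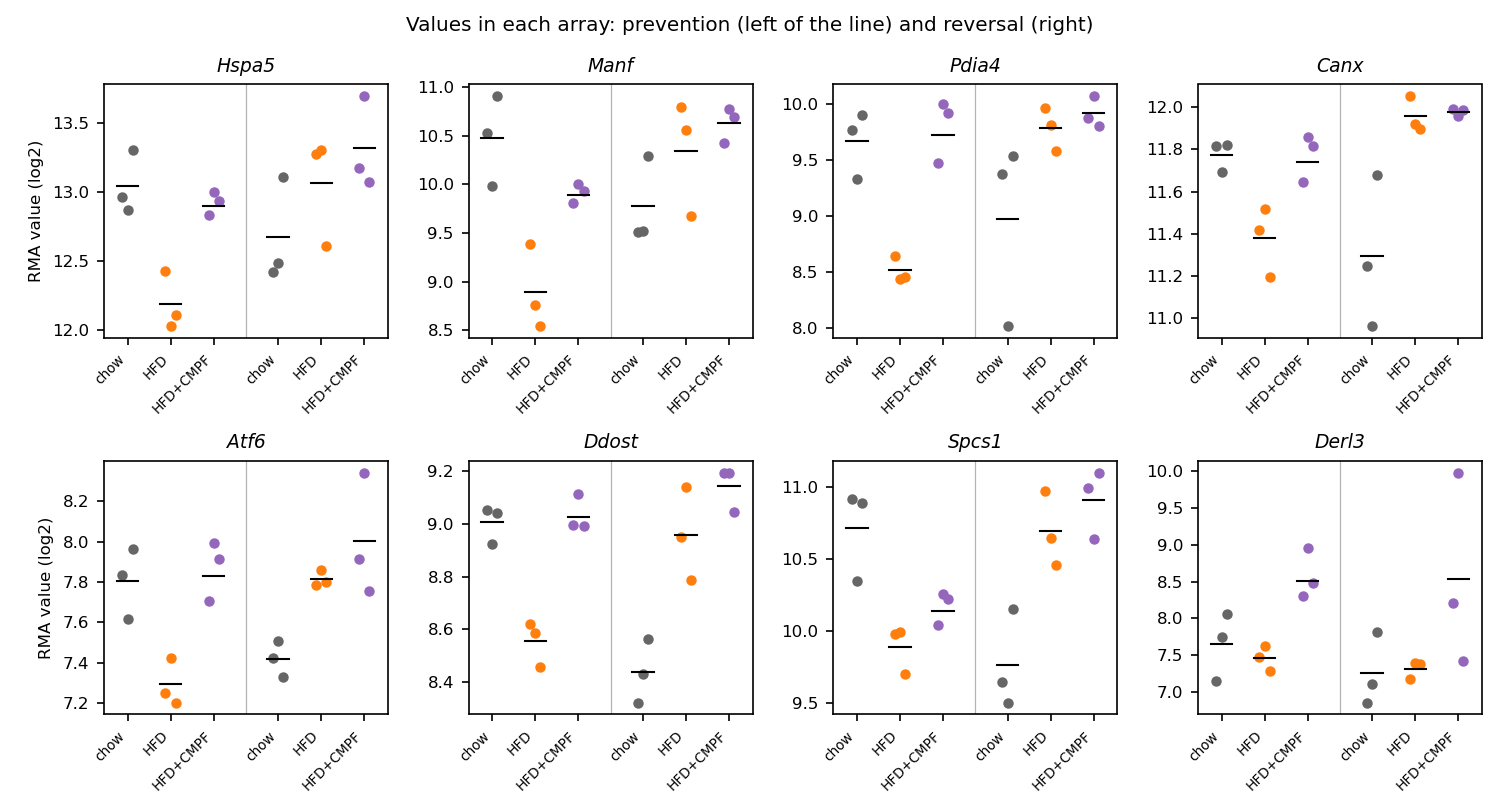
Log2 signal on every array (points, with group means) of Hspa5, Manf, Pdia4, Canx, Atf6, Ddost, Spcs1 and Derl3 in the 6 groups. In prevention the HFD arrays lie below the chow arrays for the first 7 genes, and in reversal Pdia4, Canx, Atf6, Ddost and Spcs1 lie higher on all HFD arrays than on all chow arrays.

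In ER-associated degradation 0 of 7 members passed for HFD in prevention (3.83% of all genes fell) or in reversal (2.17% rose). All 7 lay below 0 in prevention (49.7% of all genes). In reversal 1 lay below 0, where 54.9% of all genes lay above it. Derl2, of the derlin family that helps proteins leave the ER, had means of 10.22 ± 0.426, 9.47 ± 0.242 and 9.79 ± 0.156 in prevention chow, HFD and CMPF and 9.96 ± 0.348, 10.50 ± 0.244 and 10.55 ± 0.209 in reversal. Edem1, a lectin that directs glycoproteins to degradation, had means of 9.06 ± 0.306, 8.58 ± 0.0449 and 8.91 ± 0.155 in prevention and 8.60 ± 0.615, 9.32 ± 0.288 and 9.44 ± 0.111 in reversal. These were the 2 members of the role whose HFD effect differed between models, by 1.29 ± 0.317 and 1.21 ± 0.347 (adjusted p = 0.0281 and 0.0411).

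Herpud1, a scaffold of the degradation complex that is strongly induced by ER stress, read 10.74, 9.87 and 11.56 with chow, 12.22, 11.50 and 11.12 with HFD and 11.83, 12.29 and 12.62 with CMPF in reversal. All CMPF arrays lay above all chow arrays, and Herpud1 rose by 1.52 ± 0.365 against chow (adjusted p = 0.0482), 2.88-fold. That call held with all 18 arrays counted, with an intensity trend in the variance prior and without chow 3, and was lost in every other alternative run for it. In prevention it read 10.51, 10.61 and 10.81, 9.96, 10.41 and 10.72 and 10.77, 10.80 and 10.72, with HFD and chow overlapping.

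Derl3, the stress-induced derlin of secretory cells, is described for its CMPF differences. In prevention it read 7.15, 7.74 and 8.06 with chow, 7.48, 7.63 and 7.29 with HFD and 8.31, 8.96 and 8.48 with CMPF, and all CMPF arrays lay above both other groups. The reversal signals of Derl3 were 6.86, 7.11 and 7.82 with chow, 7.18, 7.39 and 7.37 with HFD and 8.20, 9.98 and 7.42 with CMPF, where CMPF 2 was far the highest. The CMPF differences of 1.05 ± 0.525 and 1.22 ± 0.469 did not pass (adjusted p = 0.657 and 0.894). The reversal difference of Derl3 moved with single arrays: it was 0.50 without CMPF 2 and 1.78 without CMPF 3. Sel1l and Syvn1, the core of the ubiquitin ligase of this pathway, and Derl1 passed in no comparison by their chosen probe sets. For the difference of the HFD effects these gave 0.13 for Sel1l and 0.06 for Derl1. Other probe sets gave 0.70 to 1.88 for Sel1l and 0.87 to 1.73 for Derl1.

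At the translocon and its enzymes, 5 of 10 members fell with HFD in prevention (3.83% of all genes). With HFD in reversal 3 rose (2.17% of all genes). Ddost, a subunit of oligosaccharyltransferase, read 9.05, 8.92 and 9.04 in prevention chow, 8.62, 8.58 and 8.46 in HFD and 8.998, 9.11 and 8.99 in CMPF. The HFD arrays lay apart from both, with a fall of 0.45 ± 0.106 against chow (adjusted p = 0.0298) and a CMPF difference of 0.47 ± 0.118 (adjusted p = 0.324). The reversal signals of Ddost were 8.32, 8.43 and 8.56 with chow, 8.95, 9.14 and 8.79 with HFD and 9.19, 9.20 and 9.04 with CMPF, and all arrays of mice on HFD lay above chow. Ddost rose by 0.52 ± 0.106 with HFD (adjusted p = 0.0222) and by 0.71 ± 0.106 with HFD and CMPF (adjusted p = 0.00508), the smallest p of any member there. CMPF against vehicle in reversal was 0.19 ± 0.106 (adjusted p = 1.00), and the HFD effects differed by 0.97 ± 0.15 (adjusted p = 0.0163).

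Spcs1, a small subunit of signal peptidase, read 10.92, 10.35 and 10.89 in prevention chow, 9.98, 9.99 and 9.70 in HFD and 10.04, 10.26 and 10.22 in CMPF. Here the CMPF arrays stayed below the chow arrays, at -0.58 ± 0.227 (adjusted p = 0.451), and it fell with HFD by 0.83 ± 0.203 (adjusted p = 0.0332). In reversal it read 9.65, 9.50 and 10.15, 10.98, 10.64 and 10.46 and 10.99, 10.64 and 11.10, with chow lowest, and rose by 0.93 ± 0.203 with HFD and by 1.15 ± 0.203 with HFD and CMPF (adjusted p = 0.0306 and 0.0124). The difference of its HFD effects was 1.75 ± 0.287 (adjusted p = 0.0169).

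Spcs2, another signal peptidase subunit, read 9.97, 9.29 and 10.12 in prevention chow, 8.61, 8.76 and 8.56 in HFD and 8.95, 9.16 and 9.04 in CMPF. It too had CMPF arrays below chow (-0.77 ± 0.271, adjusted p = 0.399) and HFD arrays lower still (fell by 1.15 ± 0.242, adjusted p = 0.0218). Its reversal values of 9.24, 8.59 and 9.28, 9.99, 9.67 and 9.26 and 9.76, 9.65 and 10.16 gave an HFD effect higher than in prevention by 1.76 ± 0.343 (adjusted p = 0.0183). For Spcs3, which is essential for signal peptidase, that difference was 1.38 ± 0.303 (adjusted p = 0.0242). Sec11c, a catalytic subunit, did not pass.

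Ccdc47, part of the complex that inserts multipass membrane proteins beside the Sec61 channel, read 10.44, 10.06 and 10.31 in prevention chow, 9.59, 9.63 and 9.75 in HFD and 10.29, 10.47 and 10.38 in CMPF. HFD arrays were lowest, and Ccdc47 had the smallest p of the members both for HFD, where it fell by 0.61 ± 0.112 (adjusted p = 0.0159), and for CMPF (0.70 ± 0.125, adjusted p = 0.215). Counting all 18 arrays separately, 1 member passed for CMPF in prevention, and it was Ccdc47. In reversal it read 10.58, 10.30 and 10.40, 10.63, 10.73 and 10.57 and 10.53, 10.45 and 10.43, with CMPF below HFD, and its CMPF effects differed between models by -0.87 ± 0.168 (adjusted p = 0.313).

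Ssr3, of the translocon-associated complex, read 10.57, 10.06 and 10.63 in prevention chow, 9.60, 9.78 and 9.55 in HFD and 10.36, 10.58 and 10.59 in CMPF. The HFD arrays lay apart, with a fall of 0.77 ± 0.188 (adjusted p = 0.033) and a CMPF difference of 0.83 ± 0.211 (adjusted p = 0.327). In reversal Ssr3 read 10.81, 10.12 and 10.63, 11.12, 10.79 and 10.79 and 10.82, 10.65 and 11.01, and its CMPF effects differed between models by -0.90 ± 0.283 (adjusted p = 0.507). Ssr1, of the same complex, passed for the difference of HFD effects (0.65 ± 0.186, adjusted p = 0.0414).

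Sec61b, the beta subunit of the channel, read 10.76, 10.52 and 10.97, 10.70, 10.74 and 10.43 and 10.94, 10.95 and 10.89 in prevention, with no separation of HFD from chow. In reversal it read 10.47, 9.80 and 10.70 with chow, where chow 2 was lowest, 11.32, 11.34 and 11.11 with HFD and 11.38, 11.41 and 11.49 with CMPF, and the groups did not overlap. It rose by 0.93 ± 0.188 with HFD and by 1.102 ± 0.188 with HFD and CMPF against chow (adjusted p = 0.0221 and 0.0108). Sec61a1, the pore of the channel, passed in no comparison by its chosen probe set. That probe set gave -0.28 ± 0.166 for HFD in prevention and 0.54 ± 0.235 for the difference of the HFD effects. Other probe sets of Sec61a1 gave -1.35 to 0.35 and 0.10 to 2.04.

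Both COPII members fell with HFD in prevention, where 3.83% of all genes did. Sec24d read 9.83, 8.79 and 10.04 in prevention chow, 7.997, 8.36 and 8.10 in HFD and 8.98, 9.31 and 9.20 in CMPF, so that chow 2 lay just below the CMPF arrays and HFD lay below all others. It fell by 1.40 ± 0.266 with HFD (adjusted p = 0.0168), 2.64-fold. Reversal values of Sec24d were 9.61, 9.19 and 9.21, 10.09, 9.75 and 9.65 and 9.66, 9.66 and 10.15, and the HFD effects differed by 1.90 ± 0.376 (adjusted p = 0.0188). Sec23b, the inner coat subunit, had means of 8.74 ± 0.583, 7.84 ± 0.0216 and 8.48 ± 0.226 in prevention chow, HFD and CMPF and 8.53 ± 0.208, 9.05 ± 0.32 and 8.99 ± 0.241 in reversal. It fell by 0.90 ± 0.243 in prevention (adjusted p = 0.0469), a call that held in 4 of 17 alternatives, and its HFD effects differed by 1.42 ± 0.344 (adjusted p = 0.028).

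Several members were read by more than 1 probe set, and these did not give 1 value. A call, or the absence of one, is that of the chosen probe set. Of 91 probe sets for the members, 49 others above the filter belonged to 25 genes, and 41 of the 49 had the sign of the chosen probe set for HFD in prevention, as did 43 for CMPF in prevention and 41 for HFD in reversal. Other probe sets of Sel1l gave -0.50 to -1.28 for HFD in prevention where the chosen one gave -0.07, and 3 of Derl1 gave -0.47 to -1.07 where the chosen one gave -0.08. For Hspa5 2 other probe sets, both with names that mark possible cross-hybridisation, gave -1.19 and 0.22. Of the 38 chosen probe sets, 8 have such names, those of Canx, Ccdc47, Derl1, Hyou1, Ppib, Ssr3, Syvn1 and Xbp1.

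Related ER and stress response genes that are not members, and chaperones of cytosol and mitochondria, were read from 6 lists. The counts for HFD in prevention stand beside 3.83% of all genes tested that fell. With HFD in prevention, 3 of 22 other folding and glycan enzymes fell, with Pdia5 (-0.80 ± 0.163) and Txndc5 (-0.62 ± 0.129), both disulfide isomerases, at the smallest p. Of other degradation genes 3 of 15 fell, among them Edem3 (-0.81 ± 0.192) and Ufd1 (-0.63 ± 0.158), which helps Vcp extract proteins. Of other translocation and glycosylation genes 4 of 21 fell, among them Ostc (-1.48 ± 0.329), an oligosaccharyltransferase subunit, and Srp9 (-0.54 ± 0.141) of the signal recognition particle. Of other genes of traffic between ER and Golgi 5 of 28 fell, among them the cargo receptor Lman1 (-0.92 ± 0.168) and Tmed7 (-1.42 ± 0.287). None of 10 genes passed in a list of other sensors, site proteases and the stress response genes Atf4, Ddit3, Ppp1r15a and Trib3 (Creb3l3 -0.18 ± 0.102 and Eif2ak3 -0.37 ± 0.234). Of 17 chaperones of cytosol and mitochondria 1 fell, Hspe1 (-0.53 ± 0.135), with Cct5 at -0.46 ± 0.148. The adjusted p of the genes that fell and are named here was 0.0157 to 0.041, and list medians ran from -0.39 for traffic to 0.13 for the cytosolic and mitochondrial chaperones.

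With HFD in reversal, where 2.17% of all genes rose, 1 of the 21 translocation genes did (Srp14, 0.44 ± 0.0977, adjusted p = 0.0323). All 21 lay above 0 (54.9% of all genes), with Rpn2 at 0.60 ± 0.156. One of the 17 cytosolic and mitochondrial chaperones rose (Hspa4l, 0.54 ± 0.132, adjusted p = 0.0491), with Dnaja1 at 0.63 ± 0.180. No gene passed among the other folding enzymes (Fkbp7 0.82 ± 0.238, Txndc5 0.40 ± 0.129), sensors and stress response genes (Creb3l2 0.93 ± 0.289, Atf6b 0.39 ± 0.123), degradation genes (Vcp 0.58 ± 0.163, Ufd1 0.43 ± 0.158) or traffic genes (Copz1 0.67 ± 0.170, Copg1 0.65 ± 0.197). The HFD effect was higher in reversal in 13 of 28 traffic genes, 8 of 21 translocation genes, 5 of 15 degradation genes, 4 of 22 folding enzymes, 3 of 17 cytosolic and mitochondrial chaperones and 0 of 10 sensors and stress response genes, where 8.84% of all genes were. CMPF against vehicle changed none of these genes in either model by limma, with 25 of 28 traffic and 19 of 21 translocation genes above 0 in prevention (53.2% of all genes) and 13 and 18 of them in reversal (47.5% of all genes).

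**Figure D5:**
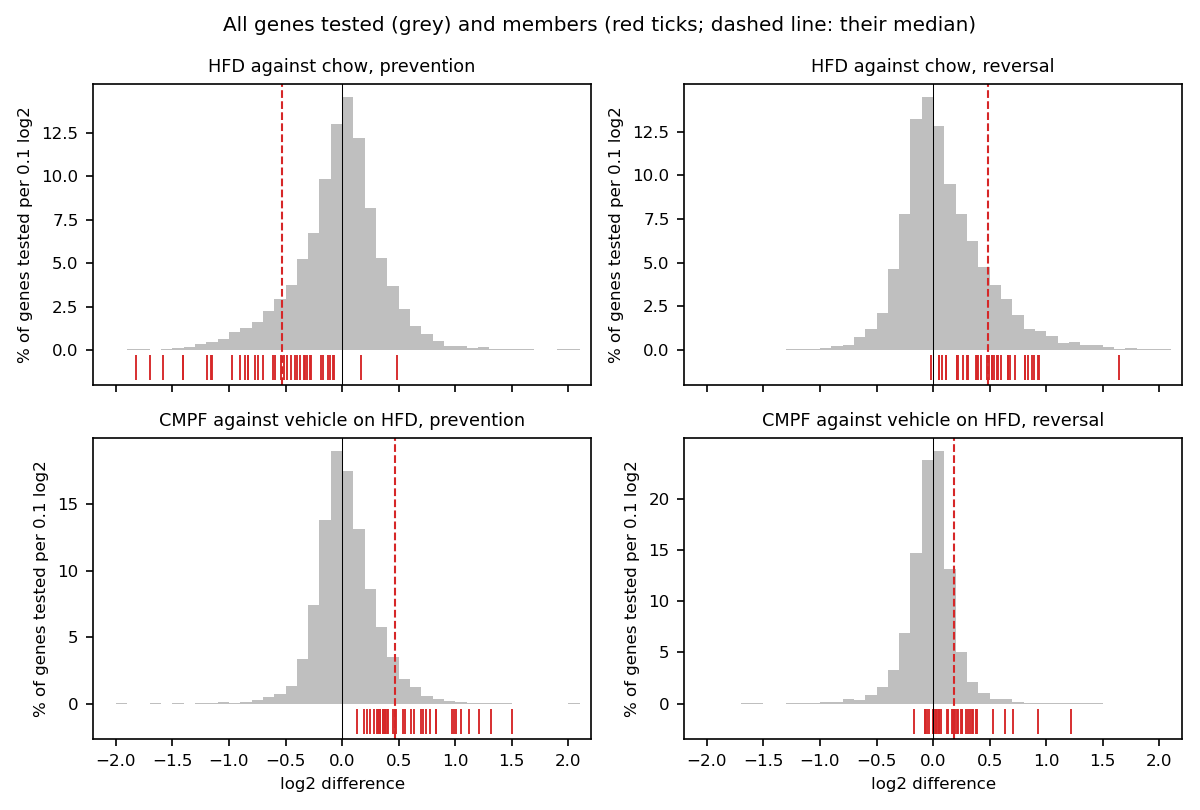
Distribution of the log2 differences of all 13221 genes tested (percent of genes per bin) with the 38 members marked, for the HFD and CMPF comparisons of both models. Members centre at -0.53 for HFD and 0.47 for CMPF in prevention, and at 0.49 and 0.19 in reversal, while all genes centre near 0.

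Markers of other cell types were read beside these results, and in bulk tissue fewer cells of a type and less RNA per cell cannot be told apart. Pancreatic acinar cells are rich in ER, and their markers (log2 of the summed signal) were at 7.88, 8.41 and 10.11 in prevention chow and between 7.59 and 7.96 on the other prevention arrays. In reversal they were at 8.99 on chow 1 and between 7.55 and 8.09 elsewhere. All 6 markers tested lay below 0 for HFD in prevention (49.7% of all genes) with a median of -0.998, and 0 of 6 passed. Their part in the members' values was not tested. Without prevention chow 3, 0 members passed for HFD in prevention and the members' median effect was -0.45. Members passing also numbered 0 without chow 1 or HFD 1, whose acinar signals were 7.88 and 7.89. The share of all genes that passed fell in each of these fits as well, so the counts cannot tell what part acinar cells had. For HFD in reversal, where 37 members lay above 0, the 6 acinar markers again lay below 0 (median -0.67), and for CMPF in prevention, where all 38 members lay above 0, 5 of the 6 lay below 0 (median -0.17). Of plasma and B cell markers 0 of 5 passed in the prevention and reversal HFD comparisons, with summed signals of 8.21 to 9.36 in prevention chow and 8.81 to 9.78 in prevention HFD.

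Kupffer cell markers lay above 0 in 8 of 8 genes for HFD in reversal (54.9% of all genes, marker median 0.90) and below 0 in 8 of 8 for CMPF in prevention (46.8% of all genes, marker median -0.57), with 0 of 8 passing in each. Their summed signal ran from 10.91 to 11.47 in reversal chow and from 11.51 to 11.93 in reversal HFD, and from 10.36 to 11.85 with CMPF against 10.46 to 12.75 with HFD in prevention. Endothelial markers rose in 2 of 6 genes with HFD in prevention (1.74% of all genes), stellate cell markers in 0 of 8, cholangiocyte markers in 0 of 3 and the adipocyte marker tested, Retn, in 0 of 1. Hepatocyte markers passed in 0 of 7 genes for HFD in either model, with medians of -0.063 and 0.052. Whether cell makeup contributed to the members' values was not tested.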

How the data were processed

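Liver RNA was measured on 18 one-colour Affymetrix mouse arrays, 3 in each of 6 groups. The deposited values are log2 signals; per the submitters' processing notes the authors made them with Affymetrix Expression Console 1.1 and RMA, and which arrays were normalised together is not given in the sources used here. Arrays give no depth, and their number limits the precision.

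Of 45101 probe sets, 64 are controls, 34945 were paired with 1 gene symbol, 932 with several and 9160 with none. Probe sets in the lowest 40% by mean were dropped, and the probe set with the highest mean stood for a gene. One limma 3.58.1 model (R 4.3.3) of the 6 group means with empirical Bayes was fitted to 13221 genes and 17 samples (prevention CMPF arrays 2 and 3 averaged; 11 residual and 3.02 prior degrees of freedom). P-values were adjusted by Benjamini-Hochberg over these genes, with a threshold of 0.05, for 8 comparisons; a gene passed, rose or fell at that threshold. The code was tested on simulated data.

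The members, lists, rules and tests were chosen with earlier results of these data known. Values on every array are given for Hspa5, Xbp1, Atf6, Ern1 and, in each comparison, up to 8 members past the threshold with the smallest p (the 3 smallest where fewer than 3 passed), group means for 2 members of each role, and 2 genes of each list. The Derl3, Dnajc3, Hyou1 and Ppib remarks beyond that rule were chosen after their values were seen. Alternatives were the filter, the probe set rule, 2 normalisations, all 18 arrays, fewer groups in the fit, the replicate block, the 3' to 5' index, an intensity trend and leaving out each array; leaving out the 2 arrays of lowest index in each model was added after seeing the data. Motifs were searched as literal letters on both strands.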

Additional observations from a re-analysis of the deposited data

Results flagged for a closer look

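For 22 members the effect of HFD differed between the models, as tested by limma's contrast of the reversal effect minus the prevention effect (log2, adjusted p under 0.05 over 13221 genes, where 8.84% of all genes passed in this direction). At the translocon, signal peptidase and glycosylation the differences were 0.97 for Ddost, 1.75 for Spcs1, 1.76 for Spcs2, 1.38 for Spcs3, 0.83 for Ccdc47, 1.16 for Ssr3, 0.65 for Ssr1 and 1.06 for Sec61b. Among the lumenal chaperones they were 2.15 for Manf, 1.64 for Dnajb9, 1.25 for Hspa5, 2.28 for Sdf2l1 and 1.36 for Dnajb11. The isomerases Pdia4, Pdia6 and Pdia3 differed by 1.98, 1.86 and 2.66. Canx differed by 1.06, Atf6 by 0.91, and the degradation genes Derl2 and Edem1 by 1.29 and 1.21. The COPII genes Sec24d and Sec23b differed by 1.90 and 1.42. The mean 3' to 5' index rose from 1.43 to 2.84 between chow and HFD in prevention and was 3.15 and 2.62 in reversal, where the ranges of the groups overlapped. With the index as a covariate 0 members passed, and the members' median difference was 1.05 against 1.11.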

How the results depend on the processing

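The sign of the members' median held in the alternatives that were run, except for CMPF against chow in prevention. Their median lay between -0.62 and -0.34 for HFD in prevention (32 to 36 members below 0), between 0.36 and 0.51 for CMPF in prevention (0 below 0), between 0.28 and 0.61 for HFD in reversal (0 to 7 below 0) and between 0.73 and 1.25 for the difference of the HFD effects (0 to 4 below 0). It lay between 0.06 and 0.24 for CMPF in reversal (3 to 15 below 0). For CMPF against chow there it lay between 0.47 and 0.82 (0 to 3 below 0). For the difference of the CMPF effects it lay between -0.47 and -0.22 (30 to 35 below 0). It took both signs, -0.13 to 0.17, for CMPF against chow in prevention (7 to 25 below 0).

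The number of members called was less stable. For HFD in prevention (11) it was 5 with the compared groups alone, 0 with the 3' to 5' index as a covariate and 0 without the 2 chow arrays of lowest index. For HFD in reversal (4) it was 1 with quantile normalisation, 2 with cyclic loess, 0 with the arrays of the model or of the compared groups alone and 0 without the 2 reversal arrays of lowest index. For CMPF against chow in reversal (5) these last 3 settings gave 0, 0 and 2 members and the index 8. For the difference of the HFD effects (22) the index gave 0, and leaving out the 2 reversal arrays gave 6, the 2 prevention chow arrays 0 and all 4 arrays 0. CMPF in prevention went from 0 to 1 member with all 18 arrays. Leaving out each array gave 0 to 17 members, 0 to 4, 3 to 7 and 0 to 23 for these 4 in turn, and 0 elsewhere. Fewer samples or genes enter some of these fits; otherwise the cause was not tested.

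With the replicate block, members called were 12 for HFD in prevention, 4 for HFD in reversal, 4 for CMPF against chow in reversal and 21 for the difference of the HFD effects. Correlations of the deviations of same-numbered arrays ran from -0.37 to 0.44 over 18 pairs, 6 of them over 0.1. Arrays with different numbers were not compared in this way, so whether replicate numbers pair the arrays cannot be told. Ern1 for HFD in reversal (0.08) turned to -0.13 with the mean of its probe sets, -0.14 with quantile normalisation, -0.093 with cyclic loess, and lay between -0.14 (without reversal HFD 2) and 0.25 (without HFD 3) as each array was left out. Over 61 values of single members, 814 alternatives kept the direction and side of the threshold, 369 kept the direction and lost the threshold, 6 gained it and 5 turned.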

Other observations

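Over the 17 samples, as deviations from group means, Pearson's r between 2 members had a median of 0.43 over 703 pairs, and 611 pairs (86.9%) lay above 0. Over all pairs of the 13221 genes tested the median was 0.0090 and 50.9% of pairs lay above 0. These correlations are a description: the points share arrays, normalisation and RNA quality, and they include chow 2 of the reversal model.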
